A study of Mus musculus with 17 samples.

Results

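The polyamine genes Odc1, Srm, Sms, Amd1, Oaz1, Sat1 and Smox were examined in the tibialis anterior, a fast shin muscle, from fiona, mdx and normal mice. Every probe set that the array platform's gene table assigns to exactly 1 of these 7 symbols was taken, which gave 7 of the 22626 probe sets tested. They covered 5 genes: Odc1 by 3 probe sets and Srm, Oaz1, Sat1 and Smox by 1 each. Sms was not measured by this rule because its 3 probe sets are shared with the pseudogene Sms-ps, and a further Oaz1 probe set is shared with Oaz1-ps. No probe set in the table carried the symbol Amd1. All 7 probe sets lay above the array's control level, the median of 15 unspiked bacterial control probe sets, on each of the 17 arrays.

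The muscles came from 5 fiona mice, a transgenic line with high utrophin that also carries the mdx mutation, from 6 mdx mice, which lack full-length dystrophin, and from 6 normal wild-type mice. The labels describe all animals as males of 56 days, with the muscles of both legs of a mouse pooled and 8 µg of total RNA labelled per array. The strain background, the promoter of the utrophin transgene and the number of founder lines were not stated in the labels. The deposited values are log2 expression values per probe set, and each array is labelled as a biological replicate, so that p-values measure the spread between these mice.

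Putrescine, spermidine and spermine are small polycations that bind nucleic acids and are needed for growth and protein synthesis. Odc1, ornithine decarboxylase, makes putrescine; Srm and Sms add aminopropyl groups to give spermidine and spermine, with the donor supplied by Amd1. Oaz1, the antizyme, binds ornithine decarboxylase and directs it to the proteasome, while Sat1 acetylates spermidine and spermine for export or breakdown and Smox oxidises spermine back to spermidine. In mouse skeletal muscle Odc1 is known to respond to androgens, and low Smox has been described in atrophying fibres.

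Sequences upstream of the genes were available from RefSeq (assembly GRCm38.p6) for 6 of the 7 genes, all but Srm. They are shown for Sat1 and Odc1, the 2 genes with a call in the comparisons that follow, each read in the direction of transcription. The Sat1 stretch is the minus strand of chrX:155216450-155216699, and the Odc1 stretch, which ends at the annotated start of the gene, is the plus strand of chr12:17544623-17544807. Capitals mark the GC box GGGCGG on either strand.
Sat1: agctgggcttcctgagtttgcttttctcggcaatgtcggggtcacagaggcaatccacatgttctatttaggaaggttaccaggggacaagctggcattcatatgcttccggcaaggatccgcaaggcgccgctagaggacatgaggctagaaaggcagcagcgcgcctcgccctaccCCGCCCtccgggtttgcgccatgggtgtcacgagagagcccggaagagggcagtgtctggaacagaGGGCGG
Odc1: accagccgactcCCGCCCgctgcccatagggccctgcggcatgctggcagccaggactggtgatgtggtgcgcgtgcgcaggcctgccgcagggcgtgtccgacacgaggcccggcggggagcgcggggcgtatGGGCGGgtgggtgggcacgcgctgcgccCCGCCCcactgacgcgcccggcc
The 250 bases of Sat1 held 2 GC boxes, a motif that 32.7% of 32851 promoters held in a window of that length. The 185 bases of Odc1 held 3, and 21.8% of promoters held at least 1 in the first 185 bases of their sequence. Those windows need not end at the start of a gene, as the Odc1 stretch does. The other motifs searched on both strands were the TATA box TATAA, the E-box CACGTG and the antioxidant response element core TGACNNNGC. None of these letters was in either stretch. In windows of 250 bases 22.8%, 6.02% and 10.2% of promoters held them, and in windows of 185 bases 16.9%, 3.88% and 6.89%. The Sat1 stretch is the first 250 bases of its promoter sequence, counted from the upstream end, and its distance from the start of the gene was not measured. A motif nearer the start of Sat1 would not have been seen.

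Dystrophin transcript followed the labels on the Dmd probe set 1417307_at, where the log2 value was 3.39 ± 0.14 in fiona, 3.35 ± 0.10 in mdx and 6.64 ± 0.20 in normal muscle (SD, n = 5, 6 and 6). It also did on 1448665_at, with a mdx difference from normal of -3.01 (adjusted p 0.00173). On the dim Dmd probe set 1430320_at it did not (-0.12, adjusted p 0.367), and fiona was called above mdx there (0.29, adjusted p 0.0169). Utrn probe set 1427569_a_at had 4.31 ± 1.90 in fiona, 2.07 ± 0.021 in mdx and 2.12 ± 0.035 in normal muscle, with 1 of 5 fiona arrays at or under the control level, but on the brighter Utrn probe set 1452222_at the fiona difference from mdx was -0.41 and not called (adjusted p 0.303). Array medians lay between 3.52 and 3.82, and the first principal component left after the group means were subtracted, with 42.7% of the remaining variance, split the arrays into 2 sets that each held all 3 groups. Against the label of male animals, 7 arrays had high Xist, the X-inactivation transcript, and low Eif2s3y, a Y-linked gene: fiona arrays 1, 2, 3 and 5, mdx arrays 1 and 4, and normal array 6. They are called arrays with a female pattern here, and mdx array 6 combined an intermediate Xist value of 5.40 with a high Eif2s3y value of 8.11. Values without these arrays leave fiona array 4 as the only fiona array and take its spread from the other groups. They are given for Sat1, for some comparisons of Odc1 and Oaz1, and for the pathway genes called. For Smox the group means are given.

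Sat1, the acetyltransferase of polyamine breakdown, was the member with the clearest difference between the groups: it was higher in mdx than in normal muscle and lower in fiona muscle than in mdx muscle. On probe set 1420502_at the fiona arrays 1 to 5 had log2 values of 7.42, 7.97, 6.93, 6.85 and 7.01. On the mdx arrays the lowest value was 8.06, the median 9.04 and the highest 9.58. The normal arrays had a lowest value of 7.05, a median of 7.49 and a highest value of 7.78. Every mdx array lay above every fiona and every normal array, while the fiona and normal arrays overlapped.

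The mdx mean of Sat1 was 8.99 ± 0.53 against 7.47 ± 0.29 in normal muscle (SD, n = 6 each), a log2 difference of 1.52 (SE 0.24, 95% confidence interval 1.00 to 2.05), or 2.88-fold. The adjusted p from limma was 0.00181, and the two-sided exact permutation p was 0.002165, the smallest that 6 against 6 arrays can give. Of the 7 probe sets, 1 (Sat1) was called for mdx against normal, at an adjusted p under 0.05 over all probe sets, where 4.04% of all probe sets were called, 2.73% higher and 1.3% lower. Groups that did not overlap, as for Sat1, were seen in 4.49% of all probe sets. The median difference over the 7 probe sets, 3 of them of Odc1, was 0.56, against -0.044 over all probe sets. That median is the value of an Odc1 probe set that was not called, 1438761_a_at.

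The fiona mean of Sat1 was 7.24 ± 0.47 (SD, n = 5), which was lower than the mdx mean by a log2 difference of -1.75 (SE 0.26, interval -2.30 to -1.21), or 3.37-fold, with an adjusted p of 0.00113 and an exact permutation p of 0.00433. Against normal muscle the fiona difference was -0.23 (interval -0.77 to 0.32, adjusted p 0.600). The mdx arrays are shared by the first 2 of these comparisons, so the opposite signs are not independent of each other. Within array set 1 the difference was 1.50 for mdx against normal and -2.02 for fiona against mdx, and within array set 2 it was 1.55 and -1.52.

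Sat1 lies on the X chromosome. With the groups kept as terms, arrays with a female pattern were 0.37 above those with a male pattern, a difference that was not called (interval -0.13 to 0.87, adjusted p 0.816). Without the arrays with a female pattern the mdx difference from normal was 1.37 (adjusted p 0.0489) and the fiona difference from mdx -1.97 (adjusted p 0.0289), with 1 fiona array left, assumed to vary like the other groups. Of the alternatives run, both calls ended within array set 2 (adjusted p 0.153 and 0.230) and with the 7 arrays with a female pattern alone (1.78 and -1.98, adjusted p 0.361 and 0.120).

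**Figure D1:**
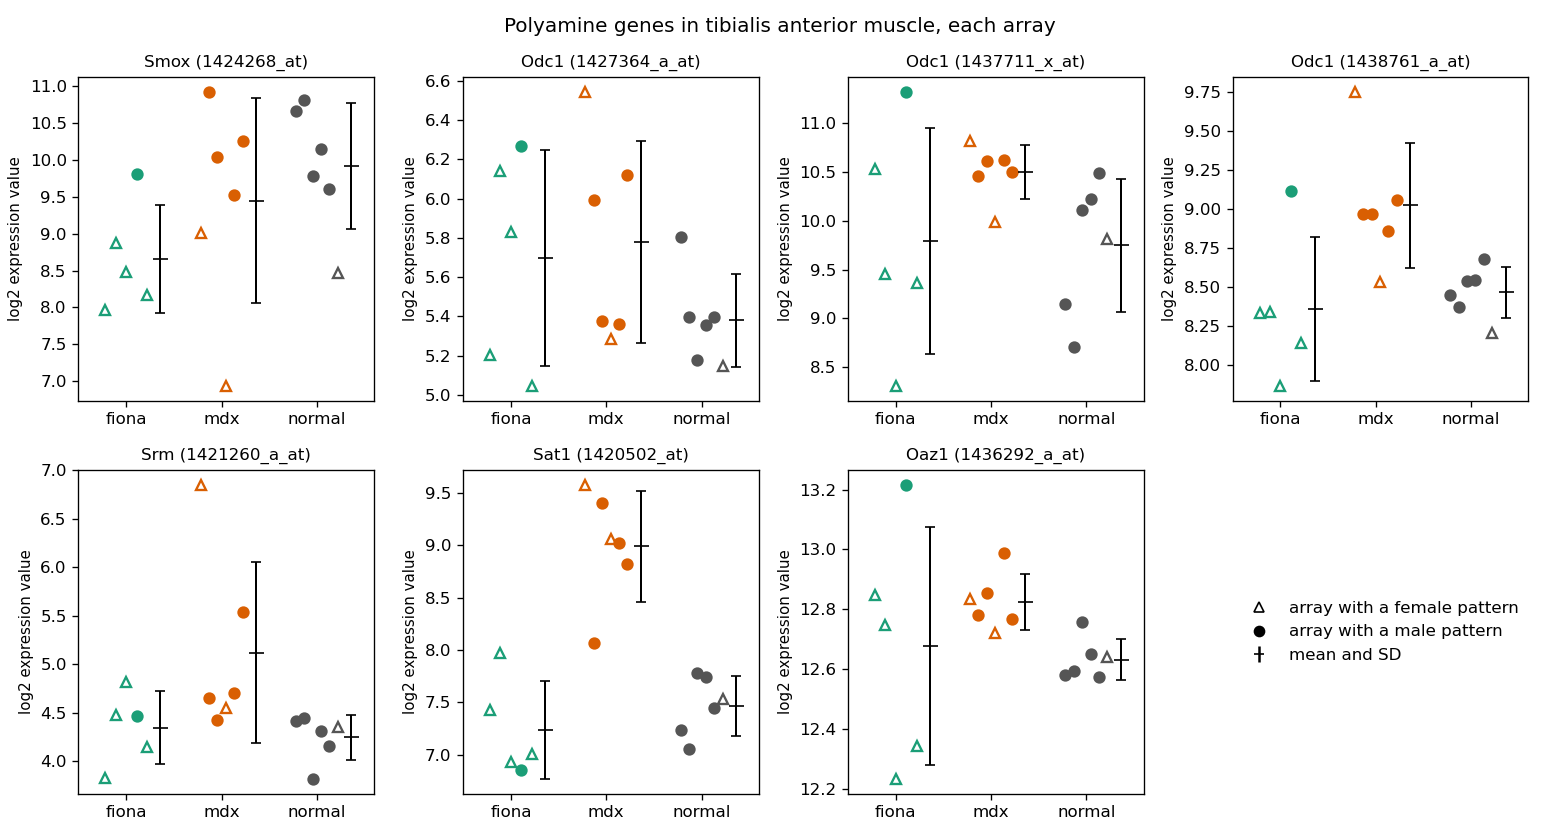
Log2 expression values (vertical axis, a separate scale in each panel) of the 7 member probe sets on the 5 fiona, 6 mdx and 6 normal arrays; triangles are arrays with a female pattern, circles arrays with a male pattern, and bars the mean with SD. For Sat1 the mdx arrays, from 8.06 to 9.58, lie above all other arrays, and for Smox the triangles lie at the bottom of the panel.

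Macrophage markers moved with Sat1. Of 12 measured macrophage markers, 9 were called higher in mdx against normal muscle and 10 lower in fiona against mdx muscle, with median differences of 2.96 and -2.62. Their summed signal ranged between 701 and 1876 on fiona arrays, 7829 and 19630 on mdx arrays and 595 and 1600 on normal arrays, and Cd68, Cd14 and Itgam were at or under the control level on all fiona and all normal arrays. Regenerating-fibre markers were called higher in mdx against normal muscle for 6 of 8 and lower in fiona against mdx muscle for 7 of 8, fibroblast markers for 2 and 5 of 6, and dividing-cell markers for 1 and 2 of 5. Summed signals in fiona, mdx and normal muscle were 288 to 420, 1017 to 11180 and 207 to 273 for regenerating fibres, 3248 to 13150, 16180 to 28620 and 8012 to 16100 for fibroblasts, and 37.9 to 48.3, 161 to 262 and 36.4 to 40.4 for dividing cells. The part of these cells in the Sat1 differences was not tested. In whole muscle, fewer cells of a type and less RNA per cell cannot be told apart.

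The genes whose pattern was most like that of Sat1 were Clic1, a chloride intracellular channel protein, and the lysosomal proteases Ctsc and Ctsz. After each gene was centred on its own mean, they differed from Sat1 by a root mean square of 0.32, 0.32 and 0.33 log2 units over the 17 arrays, against a median of 0.92 over the 12392 other genes. All 3 were called in the comparisons in which Sat1 was called, mdx against normal and fiona against mdx. They were chosen for closeness to Sat1 over these same 17 arrays. Their calls therefore follow largely from that choice and are not a separate result. Without the arrays with a female pattern the Ctsc difference of fiona from mdx was -1.05, with 1 fiona array left. Clic1 had a mean of 5.47 ± 0.28 in fiona, 7.29 ± 0.27 in mdx and 5.45 ± 0.21 in normal muscle. Ctsc had 8.05 ± 0.57 in fiona, 9.89 ± 0.44 in mdx and 8.36 ± 0.33 in normal muscle. Ctsz had 8.71 ± 0.46 in fiona, 10.72 ± 0.37 in mdx and 8.88 ± 0.24 in normal muscle (SD, n = 5, 6 and 6).

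Odc1, the enzyme that opens the pathway, was read by 3 probe sets that did not give the same result. Only 1 of them passed the test: 1438761_a_at was lower in fiona muscle than in mdx muscle. On that probe set fiona arrays 1 to 5 had 8.34, 8.34, 7.87, 9.12 and 8.14. The mdx arrays had a lowest value of 8.53, a median of 8.97 and a highest value of 9.75. The normal arrays had a lowest value of 8.20, a median of 8.50 and a highest value of 8.68. Of the 5 fiona arrays, 4 lay below every mdx array, and fiona array 4 lay inside the mdx range.

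The mean of Odc1 1438761_a_at was 8.36 ± 0.47 in fiona muscle (SD, n = 5) and 9.02 ± 0.40 in mdx muscle (SD, n = 6), a log2 difference of -0.66 (interval -1.11 to -0.22), or 1.59-fold, with an adjusted p of 0.0220 and an exact permutation p of 0.0325. Together with Sat1 it made 2 of 7 probe sets called lower for fiona against mdx, where 6.08% of all probe sets were called lower, 36% higher and 42.1% in either direction, and where the groups did not overlap in 35% of all probe sets. The count of higher and lower calls over all probe sets was 8140 and 1376 with the values as deposited, and 1227 and 1246 after the arrays were centred on a common median. That centring moved the median difference of all probe sets to -0.042, against 0.082 as deposited. After it the Odc1 difference was -0.79 (adjusted p 0.0327) and the Sat1 difference -1.88 (adjusted p 0.000936). The median over the 7 probe sets as deposited was -0.70, the value of Odc1 1437711_x_at, which was not called.

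The Odc1 call depended on single arrays, since its adjusted p was 0.0621 without fiona array 3 and 0.0553 without fiona array 5. Within array set 1 the difference was -0.061 and within array set 2 it was -1.15, neither called, and without the arrays with a female pattern it was 0.15, with 1 fiona array left. Of 16 alternatives other than leaving out single arrays, 7 kept the call, with adjusted p between 0.0138 and 0.853 over all 16.

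Against normal muscle, mdx values of Odc1 1438761_a_at were higher by 0.56 (interval 0.13 to 0.99), with all 6 mdx arrays above the normal mean and an exact permutation p of 0.00866, but an adjusted p of 0.159. It was called with array weights (0.39, adjusted p 0.0267) and without the arrays with a female pattern (0.45, adjusted p 0.0130), and its adjusted p over 16 alternatives reached 0.905.

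The second Odc1 probe set, 1437711_x_at, is of a type that can also bind related transcripts. Its fiona arrays 1 to 5 had 10.53, 9.46, 8.31, 11.32 and 9.36, the widest spread of any group on it. On the mdx arrays the lowest value was 9.99, the median 10.55 and the highest 10.82, and the normal arrays 8.71, 9.96 and 10.49. For mdx against normal the difference was 0.75 (interval -0.15 to 1.66, adjusted p 0.325, exact permutation p 0.0238) and the fiona difference from mdx -0.70 (interval -1.65 to 0.25, adjusted p 0.221). Without fiona array 4 the comparison of fiona with mdx was called, at -1.09 with an adjusted p of 0.0412, and without other single arrays the adjusted p reached 0.556.

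The third Odc1 probe set, 1427364_a_at, was dimmer, with fiona arrays 1 to 5 at 5.21, 6.14, 5.83, 6.27 and 5.05. Its mdx arrays had a lowest value of 5.28, a median of 5.68 and a highest value of 6.54, and its normal arrays 5.15, 5.38 and 5.81. The groups overlapped in each comparison. The difference was 0.40 for mdx against normal (adjusted p 0.337) and -0.082 for fiona against mdx (adjusted p 0.830). The fiona difference was 0.067 after quantile normalization.

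Srm, spermidine synthase, did not pass the test in any comparison as fitted over all arrays. Its fiona arrays 1 to 5 had 3.83, 4.48, 4.82, 4.47 and 4.15. The mdx arrays had a lowest value of 4.42, a median of 4.68 and a highest value of 6.85, and the normal arrays 3.82, 4.33 and 4.44. Of the 6 mdx arrays, 5 lay above every normal array, and mdx arrays 1 and 6, with 6.85 and 5.54, stood above the rest. The mdx difference from normal was 0.87 (interval 0.15 to 1.59, adjusted p 0.199, exact permutation p 0.00433), and the fiona difference from mdx was -0.77 (interval -1.53 to -0.015, adjusted p 0.0929, exact permutation p 0.108). The first was called with array weights (0.67, adjusted p 0.0326), and the second with the array set as a block (-0.83, adjusted p 0.0400), while over all alternatives their adjusted p reached 1 and 0.564. Leaving out mdx array 1 gave 0.53 for mdx against normal and -0.43 for fiona against mdx.

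Oaz1, the antizyme, had an SD of 0.40 over the fiona arrays (n = 5), against 0.093 over the mdx and 0.068 over the normal arrays (n = 6 each). Fiona arrays 1 to 5 had 12.85, 12.75, 12.23, 13.22 and 12.34. On the mdx arrays the lowest value was 12.72, the median 12.81 and the highest 12.99, and the normal arrays 12.57, 12.62 and 12.76. For mdx against normal the difference was 0.19 (interval -0.075 to 0.46, adjusted p 0.345, exact permutation p 0.00433), with 5 of 6 mdx arrays above every normal array. The fiona difference from mdx was -0.15 (interval -0.43 to 0.13, adjusted p 0.394), and it was called when fiona array 4 was left out, at -0.28 with an adjusted p of 0.0400, while its adjusted p over the alternatives reached 0.925. With the arrays of a female pattern left out it was 0.37, a value that rests on fiona array 4 alone, the highest of the fiona arrays.

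**Figure D2:**
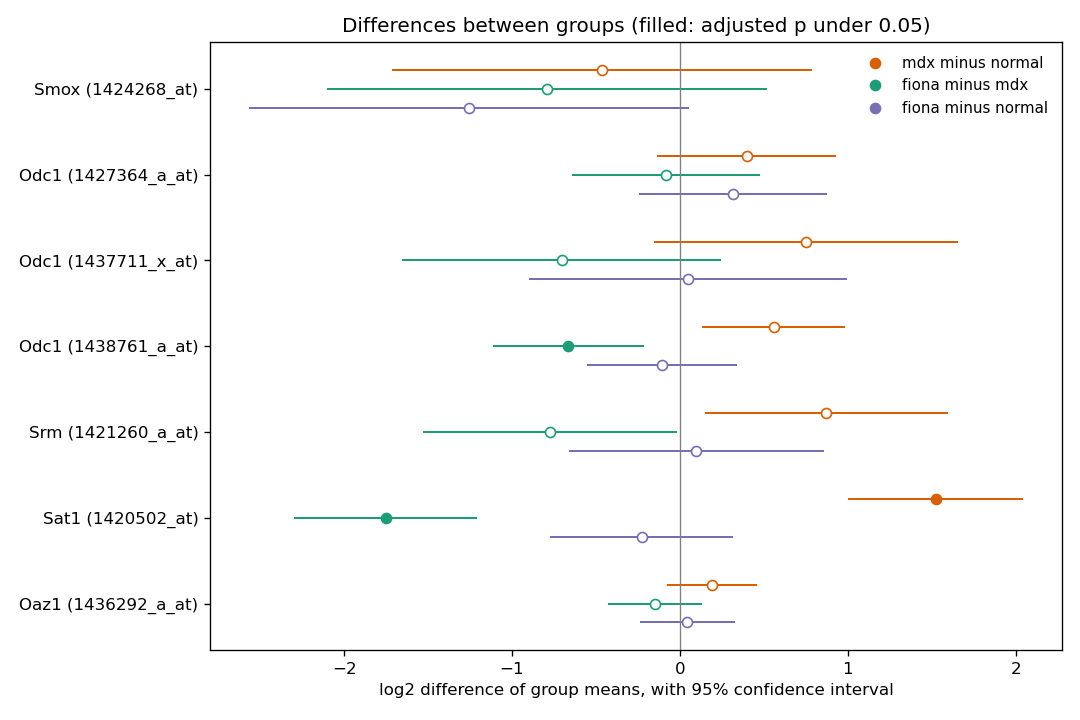
Log2 differences between group means (horizontal axis) with 95% confidence intervals for the 7 member probe sets, in the comparisons mdx minus normal, fiona minus mdx and fiona minus normal; filled points have an adjusted p under 0.05. The filled points are Sat1 at 1.52 and -1.75 and Odc1 1438761_a_at at -0.66.

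Smox, spermine oxidase, was not called in any comparison between the groups, and its SD was 0.73 over the fiona (n = 5), 1.39 over the mdx and 0.86 over the normal arrays (n = 6 each). Its fiona arrays 1 to 5 had 7.96, 8.87, 8.47, 9.81 and 8.17. The mdx arrays had a lowest value of 6.94, a median of 9.78 and a highest value of 10.93, and the normal arrays 8.46, 9.97 and 10.82. The ranges overlapped in each comparison, and mdx array 4 was the lowest of all arrays.

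The mdx difference from normal for Smox was -0.46 (interval -1.71 to 0.78, adjusted p 0.588), the fiona difference from mdx -0.79 (interval -2.10 to 0.52, adjusted p 0.322) and the fiona difference from normal -1.26 (interval -2.57 to 0.052, adjusted p 0.229, exact permutation p 0.0390). Leaving out mdx array 4 gave a mdx difference from normal of 0.038 and a fiona difference from mdx of -1.30 (adjusted p 0.0466, and up to 0.530 without other single arrays).

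The Smox values separated by the Xist and Eif2s3y pattern, a comparison chosen after the values were seen. The 7 arrays with a female pattern lay between 6.94 and 9.02, with a mean of 8.27, and the 10 arrays with a male pattern lay between 9.53 and 10.93, with a mean of 10.16. Both sets of arrays contained all 3 groups, and they did not overlap, which was the case for 0.0486% of all probe sets. With the groups kept as terms the difference was -1.87 (SE 0.35, interval -2.62 to -1.12), or 3.66-fold, but its adjusted p of 0.107 did not pass the threshold, which 0.053% of all probe sets did, 0.0309% with lower values.

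By unadjusted p Smox stood at rank 21 of 22626 probe sets, and without mdx array 6 the difference was -1.85 (adjusted p 0.163). None of the other 6 probe sets had an adjusted p under 0.767 in this comparison. With the pattern as a covariate the Smox difference of fiona from mdx was 0.081 and that of fiona from normal -0.072, and with the arrays of a female pattern alone they were 0.39 and -0.096. The female pattern was present on 4 of 5 fiona, 2 of 6 mdx and 1 of 6 normal arrays. On the arrays with a male pattern alone the Smox mean was 9.81 in fiona (n = 1), 10.19 in mdx (n = 4) and 10.20 in normal muscle (n = 5).

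**Figure D3:**
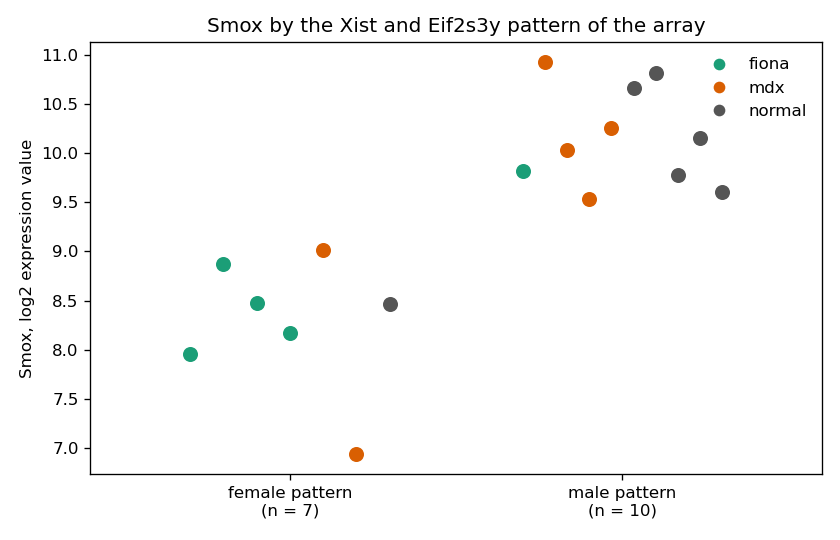
Log2 expression of Smox (vertical axis) on each array, split by the Xist and Eif2s3y pattern into 7 arrays with a female and 10 with a male pattern; colours give the group. The female-pattern arrays reach 9.02 at most and the male-pattern arrays begin at 9.53.

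Fiona array 4, the one fiona array with a male pattern, had the highest fiona value of Smox, of Oaz1 and of all 3 Odc1 probe sets, and the lowest of Sat1. For fiona against normal, 0 of 7 member probe sets were called with limma, and 0 had an unadjusted p under 0.05. At that unadjusted threshold 4277 of all 22626 probe sets were higher and 877 lower. Over all probe sets 1 was called, or 0.00442%, and the groups did not overlap in 1.04%, but 2147 were called when fiona array 2 was left out, and the members' count was then still 0. For Odc1 the fiona differences from normal were 0.32 on 1427364_a_at, 0.048 on 1437711_x_at and -0.11 on 1438761_a_at. The second of these was -0.044 after the arrays were centred on a common median, and the third was 0.037 after quantile normalization. For Srm the fiona difference from normal was 0.098 (interval -0.66 to 0.86) and for Oaz1 0.045 (interval -0.24 to 0.33), where centring the arrays on a common median gave -0.047 for Oaz1.

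Among 43 listed genes around the pathway, of which 32 were measured by a probe set of their own, 2 were called higher in mdx than in normal muscle and 0 lower, at a median difference of -0.060. At an unadjusted p under 0.05 the counts were 5 higher and 6 lower, against 1731 higher and 2187 lower of all 22626 probe sets. Over all 12393 genes, each by its brightest probe set, 393 were called higher and 165 lower, at a median of -0.041. For fiona against mdx, 5 of the 32 were called higher and 7 lower, at a median of 0.020, while 4203 of all genes were called higher and 867 lower. For fiona against normal 0 of 32 were called, with 5 higher and 3 lower at an unadjusted p under 0.05. Of all 22626 probe sets, 4277 were higher and 877 lower at that unadjusted threshold. Without fiona array 2 the number of the 32 called was 3.

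Azin1, which binds antizyme and so releases ornithine decarboxylase, was called in both comparisons. On probe set 1450714_at fiona arrays 1 to 5 had 8.60, 8.33, 7.26, 8.32 and 7.74. On the mdx arrays the lowest value was 8.60, the median 9.11 and the highest 9.81, and the normal arrays 7.49, 7.74 and 8.27. The mdx arrays lay above all others, though the lowest mdx and the highest fiona array were equal at 8.599 to 3 decimals. The mdx difference from normal was 1.33 (interval 0.84 to 1.83, 2.52-fold, adjusted p 0.00350) and the fiona difference from mdx was -1.08 (interval -1.60 to -0.55, 2.11-fold, adjusted p 0.0120). A second Azin1 probe set, 1422702_at, had differences of 1.28 (adjusted p 0.0959) and -1.12 (adjusted p 0.0427, exact permutation p 0.0736). Oaz2, the other measured regulator of ornithine decarboxylase, had -0.16 and 0.28, neither called.

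Gatm, which transfers the amidino group of arginine to glycine and yields ornithine and the creatine precursor, had the largest difference of the list. On probe set 1423569_at fiona arrays 1 to 5 had 3.55, 3.53, 3.55, 3.54 and 3.57. The mdx arrays had a lowest value of 4.49, a median of 5.67 and a highest value of 7.48, and the normal arrays 3.17, 3.38 and 3.53. All mdx arrays lay above all others, with a spread of 1.21 (SD, n = 6) against 0.016 in fiona (n = 5) and 0.14 in normal muscle (n = 6). For mdx against normal the difference was 2.57 (interval 1.71 to 3.43, 5.93-fold, adjusted p 0.00160) and the fiona difference from mdx was -2.39 (interval -3.30 to -1.49, 5.26-fold, adjusted p 0.00457).

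Atp13a3, a membrane ATPase of polyamine transport, was lower in fiona muscle than in mdx muscle by -1.35 (interval -1.93 to -0.77, adjusted p 0.0101). Its fiona arrays 1 to 5 had 6.24, 5.23, 5.13, 5.69 and 5.74, the mdx arrays a lowest value of 5.87, a median of 7.27 and a highest value of 7.48, and the normal arrays 6.00, 6.31 and 6.49. Of the 5 fiona arrays, 4 lay below every mdx array. The mdx difference from normal was 0.69 (adjusted p 0.178) and the fiona difference from normal -0.65 (adjusted p 0.200), neither called. A second probe set, 1442145_at, near the control level, had a fiona difference from mdx of 0.030 (adjusted p 0.573).

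**Figure D4:**
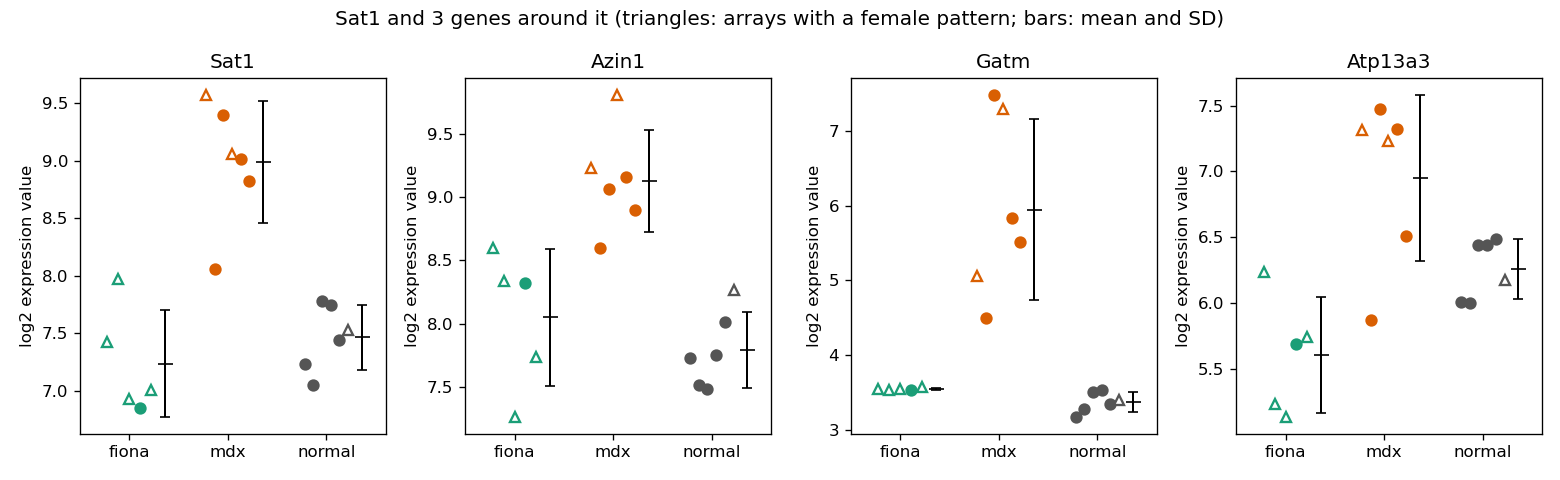
Log2 expression values (vertical axis, a separate scale in each panel) of Sat1, Azin1, Gatm and Atp13a3 on the 5 fiona, 6 mdx and 6 normal arrays, with mean and SD; triangles are arrays with a female pattern. For Sat1 and Gatm the mdx arrays lie above all others, with lowest values of 8.06 and 4.49.

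The other 4 genes called lower in fiona muscle than in mdx muscle had smaller differences. Ahcy, which clears S-adenosylhomocysteine in the methionine cycle, differed by -0.55 (adjusted p 0.0145), with all 5 fiona arrays below every mdx array. Eif5a, the translation factor that receives the spermidine-derived hypusine, differed by -0.29 (adjusted p 0.0158), with 4 of 5 fiona arrays below every mdx array. A second Eif5a probe set, 1437859_x_at, with means of 9.11 and 9.34 in fiona and mdx muscle, differed by -0.23 and was not called (adjusted p 0.615), and the mean of both was not called either (-0.26, adjusted p 0.291). Mtap, which salvages the methylthioadenosine left by spermidine and spermine synthesis, differed by -0.76 (adjusted p 0.0447, exact permutation p 0.0584). Of its dimmer probe sets, 1424425_a_at was called (-0.63, adjusted p 0.0454, exact permutation p 0.0628), while 1451345_at (-0.43, adjusted p 0.18) and 1424426_at (-0.17, adjusted p 0.18) were not. Slc3a2, the heavy chain of several amino acid transporters, differed by -0.79 (adjusted p 0.0383). The Mtap call was lost without fiona array 3, fiona array 5, mdx array 3 or mdx array 5, with adjusted p up to 0.126, and the Slc3a2 call was lost without fiona array 1, 3, 4 or 5 or mdx array 5 or 6 (highest adjusted p 0.0894). Of 17 further alternatives, 11 ended the Mtap call, with adjusted p up to 0.537, and 8 the Slc3a2 call, with adjusted p up to 0.344. Among them were median centring (adjusted p 0.0686 and 0.0634), quantile normalization (0.141 and 0.131) and the replicate number as a block (0.0984 and 0.0652).

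The 5 genes called higher in fiona than in mdx muscle by their brightest probe set were dim. They were Otc of the urea cycle at 0.59 (means 4.43 and 3.84 in fiona and mdx muscle, adjusted p 0.0120), the arginases Arg2 at 0.52 (4.11 and 3.59, adjusted p 0.0120) and Arg1 at 0.076 (2.20 and 2.12, adjusted p 0.0243), the methionine adenosyltransferase Mat1a at 0.14 (3.03 and 2.89, adjusted p 0.0137) and the cation-chloride cotransporter family member Slc12a8 at 0.12 (2.76 and 2.63, adjusted p 0.0120). Arg1 and Slc12a8 were at or under the control level on all fiona and all mdx arrays, and after the arrays were centred on a common median their differences were -0.048 and -0.0023. For Mat1a the difference was 0.016 after that centring (adjusted p 0.669) and 0.024 after quantile normalization (adjusted p 0.390). Otc and Arg2 differed by 0.31 to 0.67 and 0.32 to 0.58 over the alternatives. Among the fiona arrays both were highest on array 5 (4.92 and 4.64), which had the highest control level, 2.99. Both were lowest on fiona array 2 (3.93 and 3.70), which had the lowest, 2.75. The part of the control level in their differences was not tested. With the replicate number as a block the Mat1a and Arg1 calls were lost (adjusted p 0.0507 and 0.0753). The Arg1 call was lost without fiona array 3 or 5, with adjusted p of 0.0538 and 0.0605.

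Without the arrays with a female pattern 3 of the 12 pathway genes called for fiona against mdx were called, Eif5a at -0.35, Otc at 0.67 and Arg2 at 0.47, with 1 fiona array left. The calls that ended included Azin1 at -0.60 (adjusted p 0.135), Ahcy at -0.19 (adjusted p 0.129) and Gatm at -2.29 (adjusted p 0.120). Atp13a3 was then at -1.11 (adjusted p 0.211), Slc3a2 at -0.85 (adjusted p 0.0636) and Mtap at -0.45 (adjusted p 0.537). The dim genes Mat1a, Slc12a8 and Arg1 had 0.10, 0.098 and 0.058, with adjusted p of 0.140, 0.115 and 0.254. For mdx against normal, with 4 mdx and 5 normal arrays left, Azin1 was called at 1.23 (adjusted p 0.00470) and Gatm was not, at 2.46 (adjusted p 0.0570).

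In 2 subgroups of the list no gene was called by its brightest probe set. Among other enzymes of breakdown, Aldh4a1, which oxidises the proline and ornithine product pyrroline-5-carboxylate, had a mdx difference from normal of -0.56 (adjusted p 0.250). Among the transcription factors of Odc1, Myc had a mdx difference from normal of 0.37 (adjusted p 0.320), with values at or under the control level on all fiona and all normal arrays and on 2 of 6 mdx arrays. Without mdx array 1, which had 4.10, the Myc difference was 0.13 (adjusted p 0.286). Mycn, of the same subgroup, was not called for fiona against mdx by its brightest probe set, 1425923_at (0.41, adjusted p 0.0600). It was called higher on the dimmer probe sets 1417155_at (0.19, adjusted p 0.0120) and 1425922_a_at (0.44, adjusted p 0.019).

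**Figure D5:**
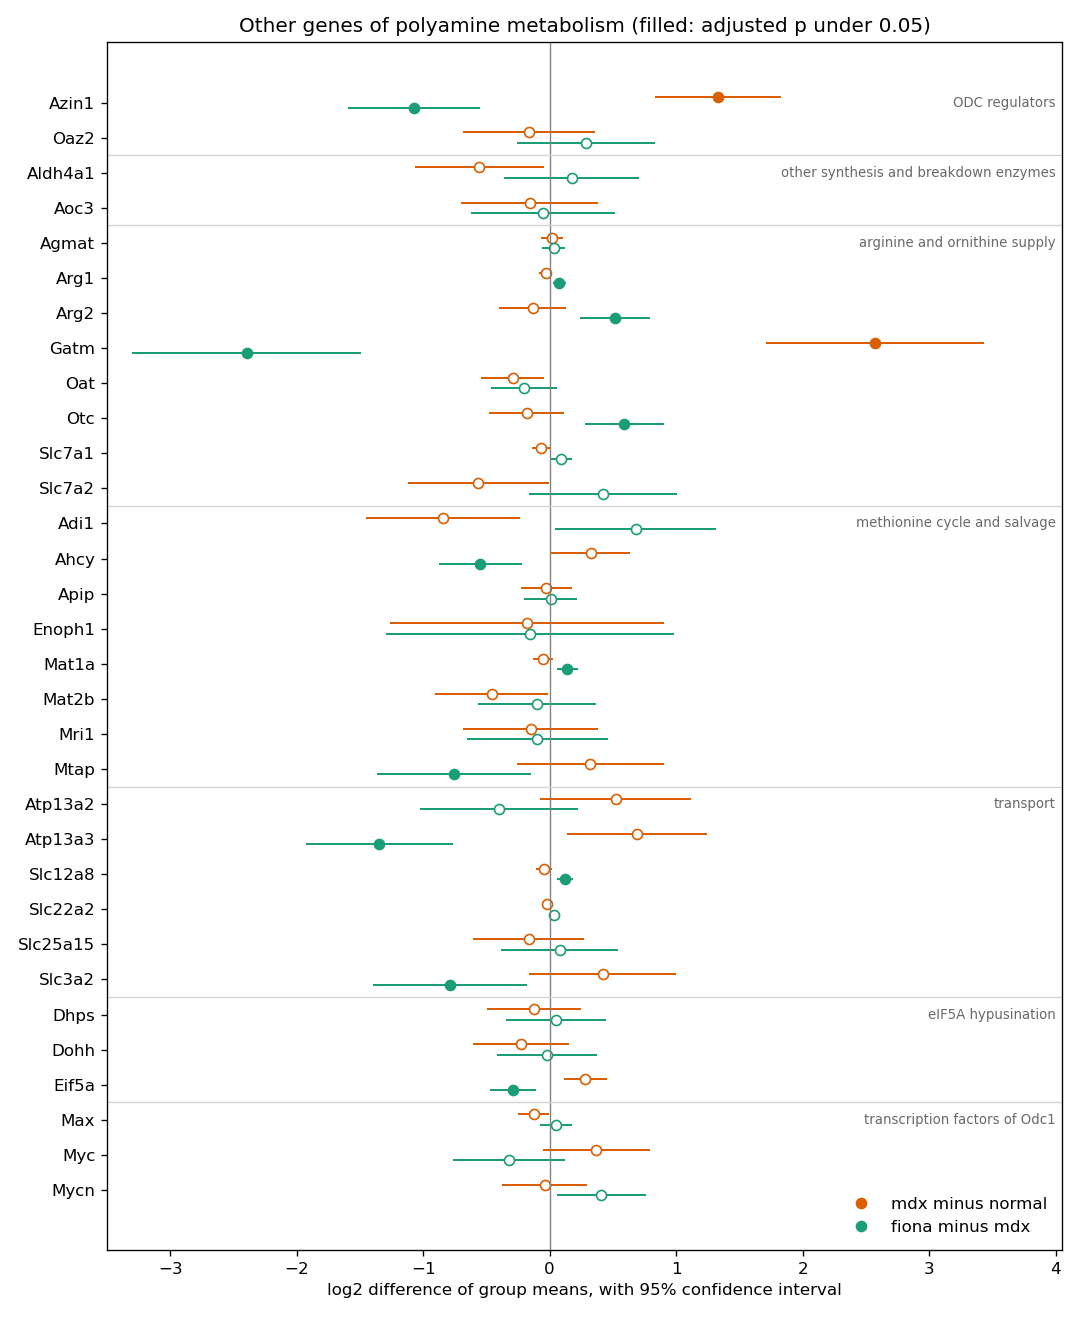
Log2 differences between group means (horizontal axis) with 95% confidence intervals for the 32 measured genes around the pathway, grouped by role, for mdx minus normal and fiona minus mdx; filled points have an adjusted p under 0.05. Azin1 and Gatm are filled in both comparisons, at 1.33 and -1.08 and at 2.57 and -2.39.

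The 10 muscle-fibre markers had a mean log2 value between 14.58 and 14.82 on fiona, 14.44 and 14.70 on mdx and 14.54 and 14.84 on normal arrays. With limma 0 of them were called for mdx against normal, where 2 had a lower value at an unadjusted p under 0.05. For fiona against mdx 2 were called higher, where 36% of all probe sets were called higher. For mdx against normal 0 of 5 endothelial, 0 of 3 erythroid and 0 of 5 lymphocyte markers were called. Of these, 1, 0 and 1 had a lower value at an unadjusted p under 0.05, against 2187 of all 22626 probe sets. For fiona against mdx 0, 1 and 4 were called higher, beside the same 36%. The lymphocyte markers had array means between 3.02 and 3.61 and a median difference of 0.24, with Cd79a at or under the control level on all arrays. Median centring, which lowered the higher calls over all probe sets from 8140 to 1227, was not run for the marker counts. For fiona against normal 0 markers of any of the 8 lists were called.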

How the data were processed

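Each mouse gave 1 Affymetrix array with a single channel. The authors deposited log2 expression values per probe set, and the submitters' processing notes name RMA and GCRMA without saying which of them made these values. Scanner files did not enter the work. Read depth does not apply, and precision is set by how many arrays a group has.

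Of 22690 probe sets, 64 controls were set aside and 22626 tested. Probe sets were named from the platform's gene table, in which 20380 had 1 symbol, 691 several and 1555 none. Differences between groups were fitted in R 4.3.3 with the package limma 3.58.1 (functions lmFit and eBayes, 3 group means, all 17 arrays), with Benjamini-Hochberg adjustment of p-values across the 22626 probe sets. A call is an adjusted p under 0.05. Two-sided exact permutation tests of the difference in means were run for each probe set named. They are given for some comparisons of the members and for Mtap and Azin1 probe sets where they did not follow the call. A difference is a log2 value with the group named first on the positive side, and intervals cover 95%. The fit was tested on simulated data.

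Other genes were taken by their brightest probe set. The genes named are all probe sets of the members, the pathway genes called in at least 1 comparison, 1 uncalled gene for each subgroup without a call, the 3 genes most like each member whose brightest probe set was called for mdx against normal (smallest root mean square difference), and Dmd and Utrn. Oaz2, Mycn, Adi1 and the further probe sets of Azin1, Atp13a3, Eif5a and Mtap fall outside this rule and were added after their values were seen. The members, the pathway list and the 8 lists of cell markers were chosen with earlier results of these data known.

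The array sets and the Xist and Eif2s3y pattern were read from the data, since no label gives them. Replicate numbers are shared by the groups. For mdx and normal arrays of the same number, the deviations from the group means correlated over 0.1 in 6 of 6 pairs (0.11 to 0.60). In both groups arrays 3, 4 and 5 fell in array set 1 and arrays 1, 2 and 6 in array set 2. The correlation therefore cannot tell a shared number from a shared array set. It was over 0.1 in 2 of 5 pairs for fiona and mdx and 1 of 5 for fiona and normal muscle. The reported fit used no pairs, and the replicate number was a block only in an alternative. Alternatives covered normalization, filters, probe set summaries, variance settings, array weights, blocks, array subsets and leaving out each array. Plots used matplotlib 3.10.9 under Python 3.11.15.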

Additional observations from a re-analysis of the deposited data

Results flagged for a closer look

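Of 75 groups of arrays, 3 for each of 25 named probe sets, 3 held an array far from the rest by Dixon's criterion, and chance gives about 1 in 20. Of these, 2 concern Ahcy, the enzyme that clears S-adenosylhomocysteine. On mdx array 1 it was 8.72, against 8.05 on the nearest other mdx array and 7.86 on the lowest. On normal array 6 it was 8.03, against 7.78 on the nearest other normal array and 7.65 on the lowest. Both are arrays with a female pattern. The fiona difference of Ahcy from mdx was called without each of the arrays in turn (adjusted p up to 0.0402), at -0.42 to -0.61, but was -0.19 and not called (adjusted p 0.129) without the arrays with a female pattern, with 1 fiona array left. The other was Myc on mdx array 1, at 4.103, against 2.90 on the nearest other mdx array and 2.53 on the lowest.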

How the results depend on the processing

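The Sat1 differences kept their sign under every alternative run, at 1.37 to 1.78 for mdx against normal and -2.02 to -1.52 for fiona against mdx, and leaving out single arrays gave 1.41 to 1.71 and -1.94 to -1.64, called each time (adjusted p up to 0.00612 and 0.00497). The number of member probe sets called for mdx against normal, 1 as reported, was 3 with array weights, 0 within array set 2, 2 without the arrays with a female pattern and 0 with those alone. Leaving out single arrays gave 1 to 1.

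The number called for fiona against mdx, 2 as reported, was 1 after quantile normalization, with the brightest or the mean probe set of each gene, with the 2 groups alone, within array set 1 and with the pattern as a covariate, and 0 within array set 2 and with the female-pattern arrays alone. With the replicate number as a block it was also 1, since Odc1 1438761_a_at had -0.69 with an adjusted p of 0.0584. The block changed no other call of a member, and of the 12 pathway calls for fiona against mdx it ended 4, Mtap (-0.80, adjusted p 0.0984), Slc3a2 (-0.72, 0.0652), Mat1a (0.12, 0.0507) and Arg1 (0.066, 0.0753). Over all probe sets it gave 4529 calls for fiona against mdx, against 9516 without it. Of the 6 mdx arrays, 1 correlated best with the normal array of its own number. Leaving out single arrays gave 1 to 4 calls. For fiona against normal it was 2 without the female-pattern arrays, a count that rests on fiona array 4 alone with the spread of the other groups.

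Pathway genes called for mdx against normal, 2 as reported, were 15 with array weights, 6 with the array set as a block, 13 within array set 1, 1 within array set 2 and 0 with the female-pattern arrays alone, and 2 to 4 without single arrays. For fiona against mdx the count of 12 was 7 after median centring, quantile normalization or the filter on dim probe sets, 0 within array set 2, 3 without the female-pattern arrays and 0 with those alone. For fiona against normal it was 0 to 3 without single arrays.

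Signs turned as follows, and the cause was not tested. For Smox, mdx against normal was 0.084 within array set 2 and -0.76 to 0.038 without single arrays, and fiona against mdx was 0.052 within array set 1, 0.081 with the covariate and 0.39 with the female-pattern arrays alone. For Odc1 1427364_a_at, fiona against mdx was 0.067 after quantile normalization, 0.025 with array weights, 0.40 within array set 1, 0.0022 with the covariate, 0.55 without the female-pattern arrays, and -0.22 to 0.081 without single arrays. For Odc1 1437711_x_at, fiona against mdx was 0.52 within array set 1 and 0.77 without the female-pattern arrays, and fiona against normal was -0.044 after median centring, -0.18 within array set 2, -0.40 with the female-pattern arrays alone and -0.33 to 0.42 without single arrays. For Odc1 1438761_a_at, fiona against mdx was 0.15 without the female-pattern arrays, and fiona against normal was 0.037 after quantile normalization, 0.086 with the mean of the gene's probe sets, 0.14 within array set 1, 0.060 with the covariate, 0.60 without the female-pattern arrays and -0.30 to 0.017 without single arrays. For Oaz1, fiona against mdx was 0.016 with array weights, 0.18 within array set 1 and 0.37 without the female-pattern arrays, and fiona against normal was -0.047 after median centring, -0.16 within array set 2, -0.097 with the female-pattern arrays alone and -0.090 to 0.16 without single arrays. For Srm, fiona against normal was -0.15 with the covariate, -0.033 with the female-pattern arrays alone and -0.019 to 0.23 without single arrays. For Sat1, fiona against normal was 0.029 within array set 2. For Oaz2, mdx against normal was 0.076 within array set 1 and 1e-04 without the female-pattern arrays, where fiona against mdx was -0.29 for Oaz2 and -0.22 for Aldh4a1. Slc12a8 and Arg1 turned to -0.0023 and -0.048 after median centring.

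Over all probe sets, calls for mdx against normal were 913 as reported, 1920 with the array set as a block, 10499 with array weights, 6032 and 381 within array sets 1 and 2, 578 with the brightest probe set of each gene and 165 with the female-pattern arrays alone. For fiona against mdx they were 9516 as reported, 3363 after quantile normalization, 3767 with the filter on dim probe sets, 2473 after median centring, 122 within array set 2, 200 with the female-pattern arrays alone, and 4818 and 5090 with the brightest and the mean probe set of each gene.

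The comparison of arrays by pattern, the array subset with a female pattern, the alternatives for the pathway list and for the genes most like Sat1, and the fit without mdx array 6 were chosen after the data were seen. Within an array set or a pattern a group holds 1 to 5 arrays, and a call missed there does not show that the groups are alike.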
